A study of Mus musculus with 2 samples.

Results

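Genes of intracellular vesicle traffic that differed between Trrap-deleted and control embryonic mouse cortex are described here: the Rab GTPases and their regulators, the SNARE fusion machinery, synaptotagmins, coat adaptors, Arf and COPI genes, tethering complexes and sorting nexins. The members were matched by gene symbol, with earlier results of these data known. They are the rows of the deposited table with a single symbol of one of these families and a value above 0 in both libraries. Rab3c and Syt4 were set aside by name. This gave 49 genes of 2317 such rows and of 2381 rows in all. RNA of cortex taken from E14.5 embryos of the B6/129 background was sequenced in 2 samples, 1 per genotype. The Trrap-deleted sample was TrrapF/F NestinCre+. The control, entered as wild type, was TrrapF/+ NestinCre+, so both carried the Cre transgene and the control had a single floxed Trrap allele. Nestin-Cre acts in neural progenitors and their progeny, so cells of other origin in the tissue, such as microglia, meninges and vessels, should keep Trrap; the number of embryos per sample is not given in the labels.

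Vesicles move cargo between the endoplasmic reticulum, Golgi, endosomes and plasma membrane. Coats and Arf GTPases shape the vesicle and select its cargo, Rab GTPases recruit motors and tethers that give a vesicle its address, and SNARE proteins on both membranes zip together to fuse them. Neurons use the same steps to grow axons and dendrites, and a specialised set (Rab3, synaptobrevin and synaptotagmins among them) to release transmitter at synapses. Trrap is the scaffold that ties histone acetyltransferases to transcription factors.

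Only loci that the authors marked as significantly different were deposited, each with 1 FPKM value per genotype (fragments scaled by transcript length and library size, a unit read from the layout of the table) and a q-value of their own test. "Listed" means that a gene is in that table; a gene that is not listed may have been unchanged, untestable or not expressed. Neither genotype was replicated, so no value here has an error or a test of its own, and sequencing depth is unknown. All ratios are Trrap-deleted over control. In these bulk samples, fewer cells of a type and less RNA per cell cannot be told apart.

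Facts of the libraries bear on every difference below. Trrap itself was not listed. Among cortical markers, Neurod6 (312 and 260 FPKM), Fezf2 (55.9 and 42.5) and Bcl11b (37.3 and 28.05) were present in control and Trrap-deleted cortex and lower in the latter, and the other 9 of 12 were not listed. Of 10 microglial markers 8 were listed, all higher, with summed levels of 10.8 (control) and 28.1 FPKM (Trrap-deleted). Of 7 meningeal markers 5 were listed, all higher (2.66 to 15.4 FPKM summed). Of 9 ventral telencephalic markers 3 were listed, all lower (10.7 to 2.35 FPKM summed). General neuronal markers went both ways, with 3 of 9 listed: Stmn2 was lower (158 and 53.9 FPKM), and Syp (54.3 and 119) and Thy1 (1.45 and 4.67) were higher. Of 7 oligodendrocyte and astrocyte lineage markers, Aldh1l1 was higher (1.27 and 11.7 FPKM) and Olig2 lower (0.423 and 0.111), and of 4 blood markers Hbb-y was higher (96.8 and 157). No listed marker was at 0 in either library, and none of 5 endothelial markers was listed. The Y-linked genes Eif2s3y (0.111 and 32.8 FPKM), Ddx3y (0.00653 and 5.18) and Kdm5d (0.00414 and 3.99) were higher, and Xist was lower (313 and 142). The libraries thus differed in their share of male tissue, a difference that cannot be told apart from genotype. The part of these differences in the results on trafficking genes was not tested.

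The promoters of 5 Rab genes are shown because these genes include the largest differences of the family in each direction: Rab3a, Rab3b and Rab3d were higher in Trrap-deleted cortex, and Rab33a and Rab31 were lower. The sequences are RefSeq's on GRCm38.p6, 250 bases before to 50 bases after the start of the gene, 5′ to 3′ on the gene's strand. Capitals mark GGGCGG on either strand, the GC box that Sp1 family factors can bind; boxes may overlap.
Rab3a (chr8:70754453-70754752, plus strand): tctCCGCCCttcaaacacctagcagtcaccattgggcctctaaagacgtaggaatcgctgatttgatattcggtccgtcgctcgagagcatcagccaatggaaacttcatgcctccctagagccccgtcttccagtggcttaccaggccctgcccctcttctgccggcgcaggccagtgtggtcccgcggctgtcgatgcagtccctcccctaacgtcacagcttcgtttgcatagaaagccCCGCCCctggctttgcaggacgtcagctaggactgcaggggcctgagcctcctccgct
Rab3b (chr4:108878820-108879119, plus strand): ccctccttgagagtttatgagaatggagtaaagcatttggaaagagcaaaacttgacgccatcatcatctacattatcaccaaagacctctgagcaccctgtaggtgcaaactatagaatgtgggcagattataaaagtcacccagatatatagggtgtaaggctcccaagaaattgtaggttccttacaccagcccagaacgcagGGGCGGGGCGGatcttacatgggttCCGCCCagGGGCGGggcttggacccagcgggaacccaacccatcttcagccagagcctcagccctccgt
Rab3d (chr9:21918134-21918433, minus strand): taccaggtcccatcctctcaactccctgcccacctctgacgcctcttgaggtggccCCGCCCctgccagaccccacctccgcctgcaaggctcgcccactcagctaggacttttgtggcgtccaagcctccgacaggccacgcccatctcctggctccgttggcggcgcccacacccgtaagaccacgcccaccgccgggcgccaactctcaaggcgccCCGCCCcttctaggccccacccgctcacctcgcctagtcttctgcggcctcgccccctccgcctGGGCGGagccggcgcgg
Rab33a (chrX:48519035-48519334, plus strand): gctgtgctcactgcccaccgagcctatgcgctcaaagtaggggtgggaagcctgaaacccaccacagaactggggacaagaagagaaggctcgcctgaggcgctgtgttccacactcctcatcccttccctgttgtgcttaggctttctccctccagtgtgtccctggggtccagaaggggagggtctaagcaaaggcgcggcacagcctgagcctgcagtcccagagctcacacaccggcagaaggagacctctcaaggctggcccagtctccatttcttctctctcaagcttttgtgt
Rab31 (chr17:65772703-65773002, minus strand): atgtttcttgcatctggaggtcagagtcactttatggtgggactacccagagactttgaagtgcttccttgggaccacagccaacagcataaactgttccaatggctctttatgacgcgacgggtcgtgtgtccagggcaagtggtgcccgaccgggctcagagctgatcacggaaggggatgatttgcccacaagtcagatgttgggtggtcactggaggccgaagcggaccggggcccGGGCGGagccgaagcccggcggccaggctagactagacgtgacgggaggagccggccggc

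By this count the promoters of Rab3a, Rab3b and Rab3d held 2, 4 and 3 GC boxes, that of Rab31 held 1, and that of Rab33a held 0. Rab3a had 2 promoter entries, of which only the first was used. GGGCGG occurred on either strand in 35.9% of all 27025 promoters of the table, 1 promoter per symbol, and in 48.003% of its 16522 promoters of protein-coding symbols. Of the 2257 other listed symbols 1431 had an entry, and 68.1% of these held it. The match is a description of the letters in this window only. Only 36 of the 49 members (73.5%) had an entry in the promoter table. GGGCGG was in 27 of the 31 higher members with an entry (87.1%) and in 3 of the 5 lower ones (60%). The motif consists of G and C only, and the GC content of the promoters also differed. Its median was 67% for these higher members and 58.7% for the lower ones. For the other listed symbols with an entry it was 61.7%, and for all promoters 52.7%. The other 13 members could not be counted, and these shares were not tested.

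The listed trafficking genes were mostly higher in Trrap-deleted cortex. Only 53 of 341 annotated symbols of these families were listed (15.5%), counting those set aside or in shared rows. The direction of the others is unknown. Of the 49 genes 42 (85.7%) were higher and 7 were lower, where 58.4% of all 2317 listed genes were higher and 41.6% lower. The median log2 ratio of the 49 genes was 0.60, a 1.51-fold difference, against 0.55 for all listed genes. All 49 were protein-coding by symbol, which not all listed genes were. Of the 1839 other listed genes that were protein-coding, 61.99% were higher, and their median log2 ratio was also 0.60. Against these genes the members thus differed in the share that was higher but hardly in the median. The quartiles of the trafficking genes were 0.45 and 0.85 on the log2 scale, and those of all listed genes -0.70 and 1.01. Large differences were few: 7 members (14.3%) were at least 2-fold higher and 3 (6.12%) at least 2-fold lower, where 25.6% and 13.3% of all listed genes were. Among genes at least 2-fold different the members therefore split 7 to 3, close to the 594 to 309 of all listed genes. The table cuts off small differences, and the smallest listed among the members was Arf1 at a log2 ratio of 0.35.

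The direction of the modest differences depended on the rescaling used. The median of all listed genes was 0.55, and if that median is set to 0, 29 members are higher and 20 lower, with 49.98% of all listed genes higher. Only genes called different were listed, and 58.4% of them were higher, so their median lies among the higher genes. Setting it to 0 splits all listed genes evenly by construction and is not a measured difference in library scale. If both libraries are instead given the same summed FPKM over the listed rows, every log2 ratio moves up by 0.35 and the split among members stays 42 to 7. Relative to the median of listed genes, 13 of the 42 higher members thus lie below it and 29 above. The 7 lower members are lower under each of these scalings. Setting the median to 0 could only move them further down. Equal summed FPKM could have reversed them, and under it Rab11fip4 (-0.066) and Ap2m1 (-0.17) lay nearest 0.

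**Figure D1:**
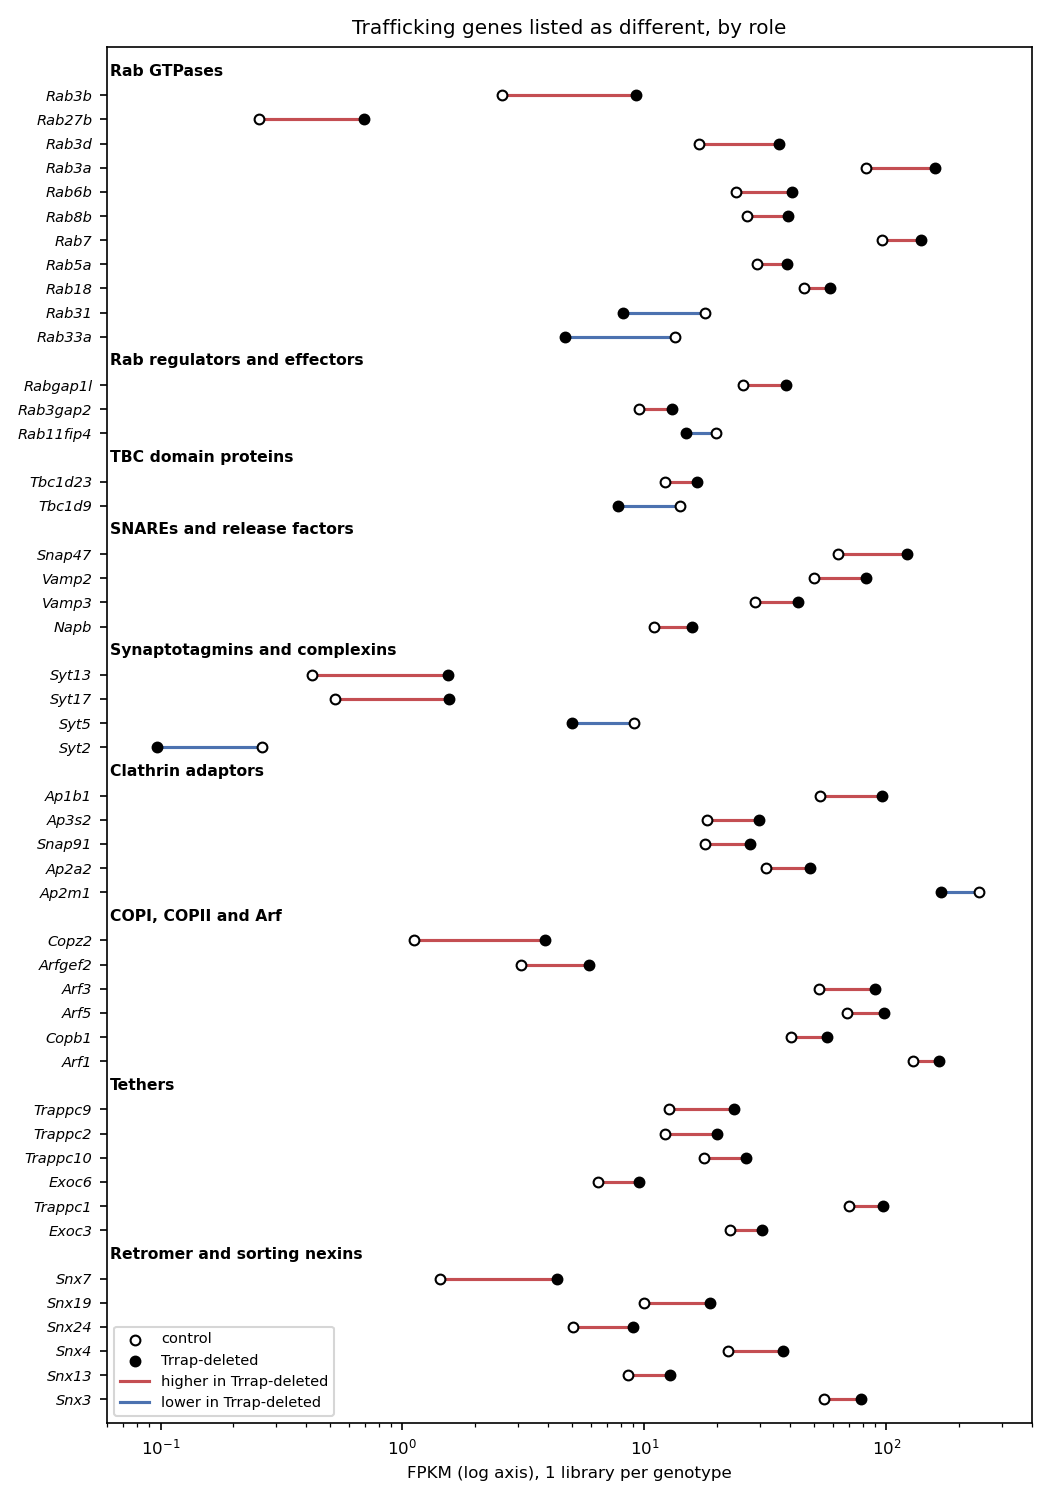
FPKM of 47 of the 49 genes on a log axis, in the control (open circles) and Trrap-deleted library (filled circles), grouped by role, 1 library per genotype and no error bars. Red lines mark the 40 plotted genes that were higher and blue lines the 7 that were lower in Trrap-deleted cortex.

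At each level of expression most listed trafficking genes were higher, while abundant genes of the rest of the table were mostly lower. This contrast was not tested. Members ranged from 0.256 FPKM (Rab27b) to 240.5 FPKM (Ap2m1) in the control and from 0.0971 (Syt2) to 167 (Ap2m1) in the Trrap-deleted library, with medians of 18.1 and 29.9. Between a mean of 10 and 100 FPKM, where 33 of them lie, 30 were higher (90.9%), whereas 53.2% of the 1044 other listed genes in that range were. Below 10 FPKM, 9 of 12 members were higher, and 73.4% of 967 other genes. At 100 FPKM or more, 3 of 4 members were higher, against 17.5% of 257 other genes. Across genes, the log2 ratio had a Spearman correlation with log2 mean FPKM of -0.19 over the 49 members and -0.42 over the 2268 other genes; genes of 1 pair of libraries share those libraries and are not independent.

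**Figure D2:**
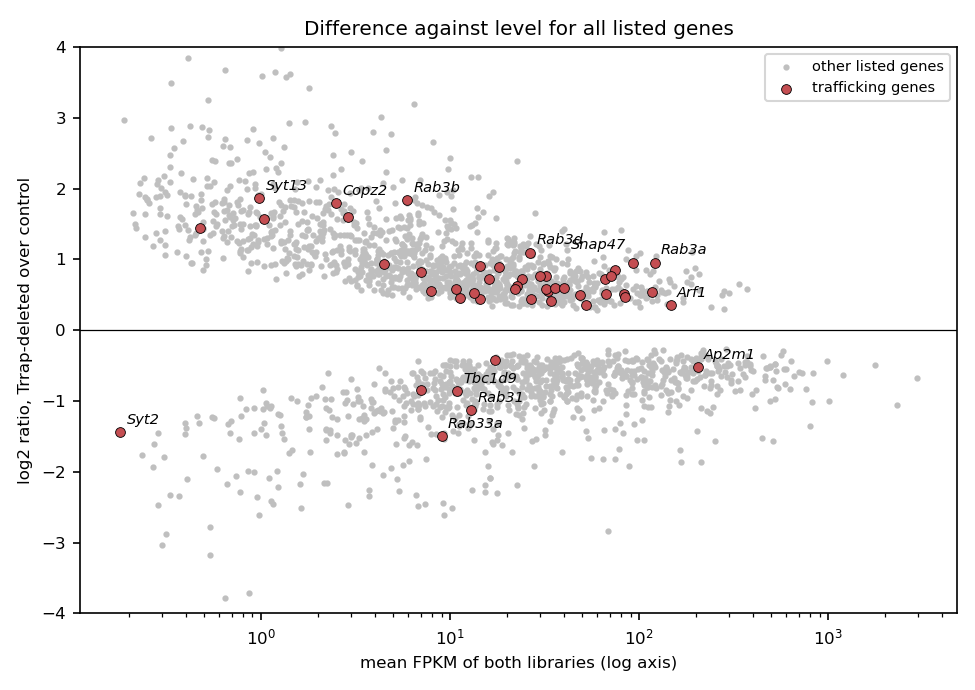
Log2 ratio against mean FPKM (log axis) for 47 of the 49 trafficking genes (red) and the other listed genes (grey); 15 other genes lie outside the plotted range. The empty band around 0 is the range the authors' threshold removed, and most members between 10 and 100 FPKM sit just above it.

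Rab GTPases were the largest class, with 11 members, 9 higher and 2 lower, where 58.4% of all listed genes were higher. After setting the median of listed genes to 0, 5 were higher and 6 lower. Of 59 annotated protein-coding symbols of this class 13 were listed (22.03%), counting Rab3c and a shared row, where 53 of 341 symbols of all the families were (15.5%) and 9.07% of all 21924 protein-coding symbols of GENCODE M21, many of which are not expressed in cortex. The 11 Rab genes summed to 354 FPKM in control and 534 in Trrap-deleted cortex.

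Rab3 proteins sit on synaptic and secretory vesicles and take part in docking and regulated release, and all 4 of their genes were listed. Rab3a, the main brain form (mm9, chromosome 8, 73278578 to 73284820), was at 82.2 FPKM in the control and 159 in Trrap-deleted cortex, 1.94-fold higher, with a q-value of 4.98e-06 in the authors' deposited table. Rab3b (chromosome 4, 108551668 to 108644682) went from 2.59 to 9.25 FPKM, 3.58-fold higher (q-value 0.00164 in the authors' deposited table). The Rab3d gene, whose product is best known from secretory granules of exocrine cells (chromosome 9, 21711663 to 21722636), went from 16.9 to 36.03 FPKM, 2.14-fold higher (q-value 0.000165 in the authors' deposited table). Rab3b and Rab3d had the largest increases among members reaching 5 FPKM. Rab3c, which was set aside from the members, went the other way, from 17.2 to 8.76 FPKM. Of the FPKM summed over the 4 genes (119 in the control and 213 in Trrap-deleted cortex), Rab3a made up 69.2% and 74.7%, Rab3d 14.2% and 16.9%, Rab3b 2.17% and 4.34%, and Rab3c 14.48% and 4.11%. Rab3c was thus far above Rab3b in the control and close to it, at a slightly lower level, in Trrap-deleted cortex. These paralogs are similar in sequence, and how shared reads were assigned is not stated.

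Several Rab genes of other compartments were higher by smaller ratios than the 3 Rab3 members. Rab7, which directs late endosomes to lysosomes, was at 95.5 and 139 FPKM (log2 ratio 0.54). Rab5a, of early endosomes, was at 29.1 and 38.9 FPKM (0.42), and Rab18, of lipid droplets and the endoplasmic reticulum, was at 45.7 and 58.7 FPKM (0.36). These last genes, with Arf1, had the smallest increases of all members, and like Rab7 they fall below 0 when the median of listed genes is set to 0. Rab6b, the neuronal form of a Golgi Rab, went from 23.8 to 40.7 FPKM, and Rab8b, of traffic to the plasma membrane, from 26.7 to 39.1 FPKM. Rab27b, a secretory vesicle Rab, was the exception. It was far weaker, at 0.256 and 0.696 FPKM, and its 2.71-fold difference was larger than those of Rab3a and Rab3d.

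The 2 lower Rab genes had the largest decreases among members reaching 5 FPKM. Rab33a, a Golgi and axonal vesicle Rab (chromosome X, 45872462 to 45883409), went from 13.3 to 4.71 FPKM, 2.83-fold lower (q-value 3.68e-07 in the authors' deposited table). Rab31, of the trans-Golgi network and early endosomes (chromosome 17, 66001066 to 66122092), went from 17.8 to 8.14 FPKM, 2.19-fold lower (q-value 1.05e-07 in the authors' deposited table). In the control their levels lay on either side of that of Rab3d (16.9 FPKM), and in the Trrap-deleted library they were below 10 FPKM while Rab3d was at 36.03. Trappc2, the other X-linked member, was higher. Of all 104 listed X-linked genes 43.3% were higher.

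Regulators of Rab proteins went both ways. Among effectors and GTP cycle regulators, Rabgap1l, a Rab GTPase-activating protein, was at 25.6 and 38.4 FPKM, and Rab3gap2, the non-catalytic subunit of the complex that acts on Rab3 and Rab18, was at 9.54 and 13.02 FPKM. Rab11fip4, an effector of Rab11 in recycling endosomes, was lower, at 19.7 and 14.8 FPKM (log2 ratio -0.41), the smallest decrease of any member. TBC domain proteins, most of which switch Rabs off, had 30 annotated symbols, of which 2 are members: Tbc1d23, an adaptor that captures endosomal vesicles at the Golgi, at 12.1 and 16.5 FPKM, and Tbc1d9 (chromosome 8, 85688335 to 85796838), 1.81-fold lower, at 14.1 and 7.77 FPKM (q-value 0.0355 in the authors' deposited table). Tbc1d24 shares a row with Ntn3 (12.1 and 19.7 FPKM), as does Rab1b with Cnih2 (98.0 and 136 FPKM), and neither was counted.

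The fusion genes described here were higher in Trrap-deleted cortex, but most of the 33 annotated SNARE and release factor symbols were not listed. The 4 SNARE and release factor genes described here were higher, where 58.4% of all listed genes were. After the median of listed genes was set to 0, 3 of the 4 were still higher. Vamp2, synaptobrevin-2 on synaptic vesicles, was at 50.004 and 82.4 FPKM. Snap47, a SNAP-25-like protein (chromosome 11, 59218659 to 59286013), went from 63.4 to 122 FPKM, 1.92-fold higher (q-value 4.76e-08 in the authors' deposited table). Vamp3, cellubrevin of recycling endosomes, was at 28.5 and 43.1 FPKM. Napb, the brain form of the SNAP proteins that help NSF take spent SNARE complexes apart, was at 10.9 and 15.7 FPKM, and it is the member that falls just below 0 under that scaling. Snap25 and Nsf were not listed.

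Synaptotagmins, the calcium sensors and related proteins of exocytosis, did not share a direction. Syt13 (0.421 to 1.54 FPKM, 3.65-fold) and Syt17 (0.525 to 1.55 FPKM, 2.96-fold) were higher. Syt5 (chromosome 7, 4491357 to 4499080) was lower, at 9.02 and 5.03 FPKM, 1.79-fold, with a q-value of 0.0480 in the authors' deposited table, close to the threshold of 0.05. Syt2, the fast calcium sensor of hindbrain and spinal synapses, was at 0.263 and 0.0971 FPKM, the lowest level of any member. Thus 3 of the 4 were under 2 FPKM in both libraries. Syt4, which was set aside, was at 17.0 and 39.6 FPKM, above every listed synaptotagmin among the members. None of 4 annotated complexin genes was listed.

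Adaptors that link cargo to clathrin had 25 annotated symbols, of which 5 were listed. Of these 4 were higher, where 58.4% of all listed genes were, and the exception was the most abundant member. Ap2m1, the cargo-binding medium subunit of the plasma membrane adaptor AP-2 (chromosome 16, 20535551 to 20548167), went from 240.5 to 167 FPKM, 1.44-fold lower (q-value 0.0443 in the authors' deposited table). Its partner subunit gene Ap2a2 went the other way, from 31.8 to 48.3 FPKM, so the ratio between these transcripts was not kept. Protein was not measured, and no other AP-2 gene was listed. Ap1b1, of the Golgi adaptor AP-1, was at 53.3 and 95.7 FPKM, and Ap3s2, of the endosomal adaptor AP-3, at 18.1 and 29.9 FPKM. Snap91, the neuronal clathrin assembly protein AP180, was at 17.7 and 27.4 FPKM. The FPKM summed over the class, of which Ap2m1 is the largest part, was 361 in the control and 369 in Trrap-deleted cortex.

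Listed Arf and COPI genes were higher in 6 of 6 cases, where 58.4% of all listed genes were higher. After the median of listed genes was set to 0, 3 of 6 were. Of the 32 annotated Arf, COPI and COPII symbols 6 were listed (18.75%), where 9.07% of all protein-coding symbols were. Arf1, the Golgi GTPase that recruits COPI and adaptors, was at 129 and 165 FPKM, and Arf3, close to Arf1 in sequence and abundant in brain, was at 52.8 and 89.8. Arf5 was at 68.6 and 97.5 FPKM. Arfgef2, the exchange factor BIG2 that activates Arf1 and is mutated in a human neuronal migration disorder (chromosome 2, 166631088 to 166723651), went from 3.08 to 5.90 FPKM, 1.91-fold higher (q-value 0.00601 in the authors' deposited table). Of the COPI coat, Copb1 was at 40.3 and 57.0 FPKM, and Copz2, an alternative zeta subunit, rose from 1.12 to 3.87 FPKM, 3.46-fold. None of 12 annotated COPII coat symbols was listed, nor was any of the 29 annotated symbols that begin with Sec and a digit.

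Tethers hold a vesicle at its target before fusion. All 6 listed, of 39 annotated symbols, were higher, where 58.4% of all listed genes were. After the median of listed genes was set to 0, 4 of them were still higher. Subunits of TRAPP, the exchange complex for Rab1 and Rab11, made up 4 of the 6, of 15 annotated symbols. Trappc9, which is mutated in a human intellectual disability with microcephaly, was at 12.7 and 23.5 FPKM, Trappc10 at 17.6 and 26.3, Trappc2 at 12.1 and 19.9, and Trappc1 at 70.3 and 97.2. Trappc9 and Trappc10 are the subunits that set the TRAPPII form apart. The exocyst, the tether at the plasma membrane, had 2 of 12 annotated symbols listed, Exoc3 (22.7 and 30.7 FPKM) and Exoc6 (6.42 and 9.46 FPKM).

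Sorting nexins bind endosomal membrane lipids and sort cargo out of endosomes. Of 30 annotated symbols 6 were listed. All 6 were higher, where 58.4% of all listed genes were, and 5 of them also after the median of listed genes was set to 0. They had the highest class median (log2 ratio 0.80) among classes with more than 1 member. Snx3, which works with retromer in Wnt carrier recycling, was at 55.4 and 78.6 FPKM, and Snx4, of recycling from early endosomes, at 22.1 and 37.5. Snx19 went from 9.95 to 18.7 FPKM, Snx24 from 5.05 to 8.96, Snx13 from 8.54 to 12.8 and Snx7 from 1.43 to 4.36. No gene with the symbol Vps (35 annotated) or Chmp (10 annotated) was listed; these symbols cover the retromer core, the Vps subunits of the HOPS and CORVET tethers and part of the ESCRT machinery of multivesicular bodies.

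**Figure D3:**
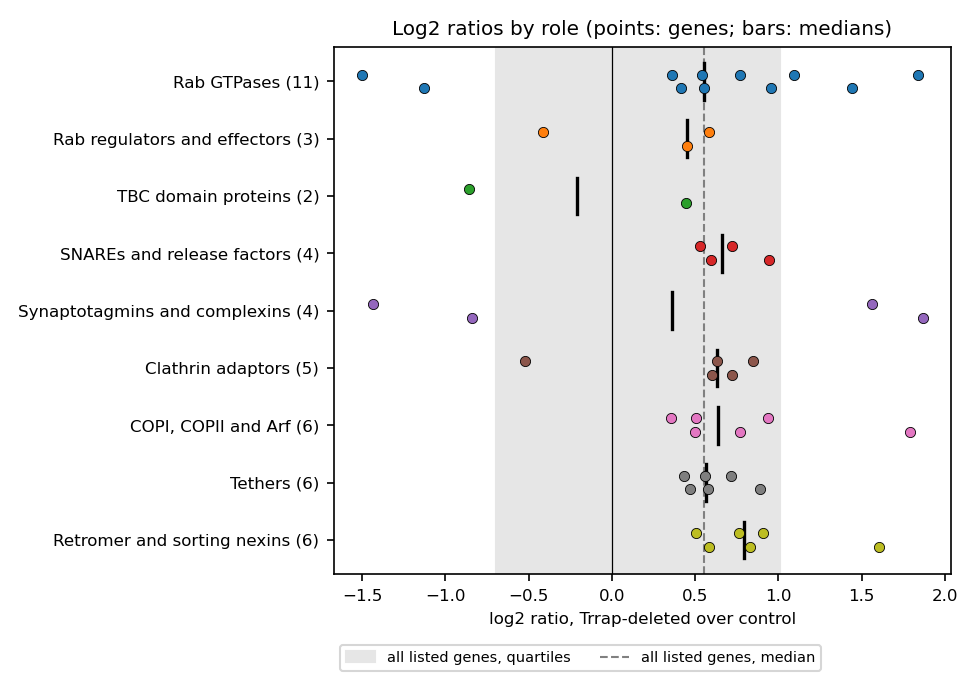
Log2 ratio (Trrap-deleted over control) of 47 of the 49 genes by role, with the number of genes plotted in brackets and a black bar at the median of the plotted genes. Grey shading spans the quartiles of all 2317 listed genes (-0.70 to 1.01) and the dashed line their median of 0.55; SNARE genes, tethers, sorting nexins and the Arf and COPI genes lie to the right of 0 throughout.

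Most listed trafficking genes with symbols outside these families were also higher. Of 115 symbols 13 (11.3%) were listed in single-symbol rows with both values above 0, where 9.07% of all protein-coding symbols had any row. Of these 12 were higher and 1 lower, where 58.4% of all listed genes were higher, and 9 of the 13 lay above 0 once the median of listed genes was set to 0. The largest increases were in Syn2, synapsin II (11.8 to 28.8 FPKM, with a weaker second row at 1.12 and 2.13), Sv2a, a synaptic vesicle glycoprotein (18.0 to 41.2 FPKM), and Syp, synaptophysin (54.3 to 119 FPKM). Rph3a, which encodes rabphilin, an effector of Rab3A, was the exception, at 4.14 and 2.02 FPKM, while Rab3a itself was higher. Cltb, a clathrin light chain (17.0 and 29.5 FPKM), Eea1, the Rab5 effector of early endosome fusion (6.04 and 9.43 FPKM), Sar1a, the COPII GTPase (53.7 and 72.9 FPKM), and Cog7, of the Golgi COG tether (7.25 and 15.1 FPKM), were also higher and were picked with their values known.

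**Figure D4:**
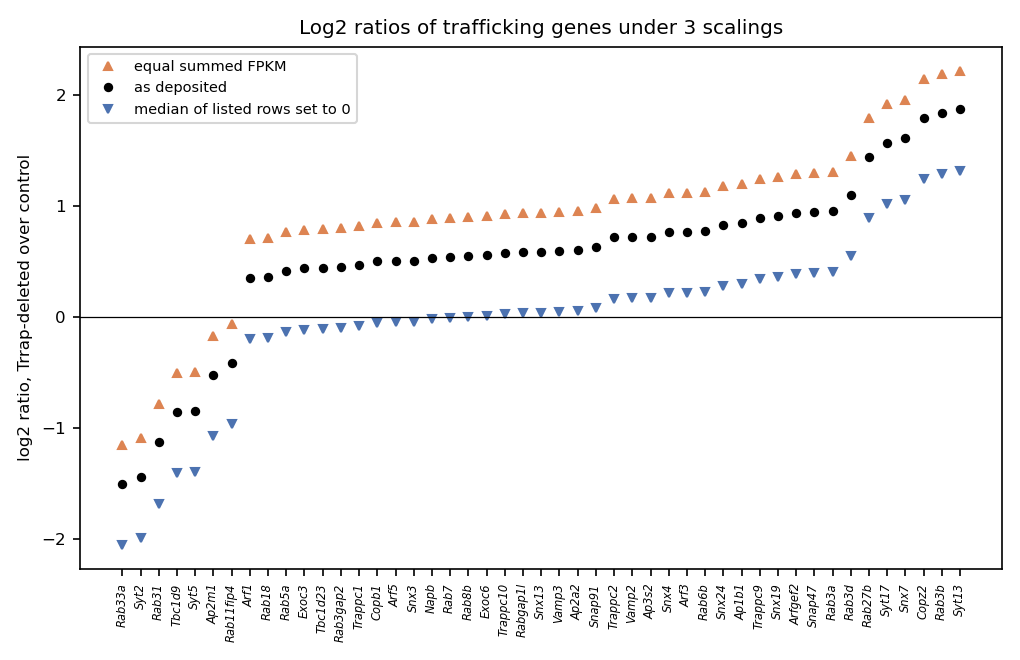
Log2 ratios of 47 of the 49 genes, ordered by the ratio as deposited (black), under equal summed FPKM (orange) and with the median of listed genes set to 0 (blue). Under the last, 13 of the 40 plotted higher genes lie below 0; the 7 lower genes stay below 0 under all 3.

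Members lay on 18 chromosomes. Chromosome 11 held 7 of them and 6.04% of all listed genes. On that chromosome Arf1 and Snap47 lie 177 kb apart, and Vamp2 and Trappc1 lie 232 kb apart, each pair with no other listed locus between and each gene higher in Trrap-deleted cortex; these were the only pairs of members within 1 Mb. The loci of the members were long, with a median of 60.2 kb against 27.6 kb for the other listed genes. Of the 23 members with a locus of 25 to under 75 kb 22 were higher (95.7%), against 61.6% of other listed genes of that length. At 75 kb or more 12 of 15 members and 66.2% of other genes were higher. Under 25 kb 8 of 11 members and 50.8% of other genes were.

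The locus in the table was over 1.5 times as long as the annotated gene for 7 members, so their values may take in reads of neighbouring genes; among them were Arf5 (24.8 against 3.04 kb), Trappc2 (63.2 against 12.6 kb), Rab5a (60.2 against 28.4 kb), Rab3a, Snap47 and Rab3gap2. All 7 were higher, and without them 35 of 42 members were higher. Strand use in counting is not stated, so overlapping antisense genes could share reads with a member.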

How the data were processed

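RNA was sequenced from 1 control and 1 Trrap-deleted cortex sample. Reads were aligned with TopHat2 to mm9, per the submitters' processing notes; a counter and a test program were not given in the sources used here. Its column layout being Cuffdiff's, the table was read as such, and its FPKM values and each p-value and q-value were deposited by the authors; all rows have a q-value of at most 0.05. Log2 ratios were computed from the FPKM values with no pseudocount, in Python 3.11.15 with pandas 2.3.3. The counting was tested on simulated data. Members were matched by symbol; 59 rows naming several symbols were not used. Gene types, lengths and symbol counts came from GENCODE M21 (GRCm38), a different build, by symbol; all 49 members matched. Loci are given on mm9, with starts counted from 1. Depth and precision are unknown, since no read totals are given. The members and lists were chosen with earlier results of these data known. Locus, fold and q-value are given for the 5 largest increases and decreases among members reaching 5 FPKM; 47 of the 49 are named with their values, and 2 are counted among the members but not reported here. The alternatives tried were a pseudocount of 1, rescaling by the median or by summed FPKM, minimum FPKM of 1 or 5, a q-value under 0.01, minimum folds, 1 row per symbol, and leaving out Sec genes outside vesicle transport. Promoter shares of 5 further motifs were planned and are not given.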

Additional observations from a re-analysis of the deposited data

How the results depend on the processing

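With 1 library per genotype, no replicate could be left out. No paired analysis was possible because each genotype had 1 library. The 42 higher and 7 lower members were the same numbers with a pseudocount of 1 (median log2 ratio 0.57) and with equal summed FPKM (median 0.94). A pseudocount cannot change a direction. Equal summed FPKM moves every log2 ratio up by 0.35, so only the 7 lower members could have changed direction. The numbers were also the same with 1 row per symbol and without the Sec genes outside vesicle transport. These last 2 settings removed no member. With the median of listed genes set to 0, 29 members were higher and 20 lower, the median was 0.045, and 5 role classes, rather than 8 of 10, had more members higher than lower. That scaling turned 13 members below 0: Arf1 (-0.20), Rab18 (-0.19), Rab5a (-0.13), Exoc3 (-0.12), Tbc1d23 (-0.11), Rab3gap2 (-0.10), Trappc1 (-0.085), Copb1 (-0.051), Arf5 (-0.045), Snx3 (-0.044), Napb (-0.022), Rab7 (-0.0092) and Rab8b (-4.6e-05). Stricter limits leave fewer members by construction. At an FPKM of at least 1, 41 were higher and 6 lower, and at 5 or more, 37 and 6 (median 0.58). At a q-value under 0.01, 31 were higher and 3 lower (median 0.67). At 1.5-fold or more, 26 were higher and 5 lower (median 0.77), and at 2-fold or more, 7 and 3 (median 1.502, with 4 classes mostly higher). Added after seeing the data, counting Rab3c and Syt4 gave 43 higher and 8 lower, and leaving out the 7 members with long loci gave 35 and 7 (median 0.59). Depth is unknown, so no detection limit could be set, and the weakest members (Syt2, Rab27b) have unknown counting error.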
